A study of Mus musculus with 24 samples.

Results

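The comparison concerned the MacA population of mouse lung, sorted as SiglecF+ and CD11c+ cells, 2 weeks after Lewis lung carcinoma cells were placed in the lung. Its members were the 3 MacA-2wk libraries and the 3 MacA-N libraries, chosen by their titles, so 6 of the 24 libraries of the series. MacA-N cells came from all lobes of naive, uninjected mice. MacA-2wk cells came from the left lobe that carried the tumour, after LLC-Luc cells (the carcinoma line with luciferase) had been injected into that lobe in diluted Matrigel. All mice were male C57BL/6 of 10 to 16 weeks, each library held cells pooled from 3 to 5 mice, and replicates were separate experiments. Tumour, injection and lobe cannot be told apart in this design. MacB2, the population set beside MacA, was sorted as CD11b+, Ly6G-, CD64 intermediate and CD11c- cells, and MacB3, found in tumour lungs, as CD11b+, Ly6G-, CD64 high and CD11c+ cells.

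SiglecF and CD11c together mark alveolar macrophages, the resident phagocytes of the airspace. These cells clear surfactant lipid and inhaled particles, depend on GM-CSF and the nuclear receptor PPAR-gamma, and under resting conditions make little complement C1q and carry little CD11b. Lewis lung carcinoma is a mouse lung tumour line that grows in C57BL/6 lungs and draws in monocytes, which become tumour-associated macrophages beside the resident cells.

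The labelled cell type was checked against its markers. Siglecf, the gene of the sorting antigen, was at 163, 303 and 228 FPKM in MacA-N and 142, 171 and 125 FPKM in MacA-2wk, against a mean of 0.942 FPKM in MacB2-N. FPKM count sequenced fragments scaled for transcript length and library size. Itgax, the gene of CD11c, was at 219, 227 and 196 FPKM in MacA-N and 168, 190.4 and 98.1 FPKM in MacA-2wk. All 6 libraries held both transcripts far above MacB2-N, where Itgax had a mean of 7.33 FPKM. Both are genes of the sorting antigens and MacB2 was sorted as CD11c-, so these levels are no check independent of the sort. Chil3, a secreted chitinase-like protein abundant in alveolar macrophages, was at 4343, 4652 and 4045 FPKM in MacA-N and 3776, 4001 and 3899 FPKM in MacA-2wk. It is also on the list of classical monocyte genes used below.

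The third MacA-2wk library stood apart from the other 5. Its Pearson correlation with each of them was 0.836 to 0.864 over log2(FPKM + 1) of the 17156 tested genes, which share library and depth, while the other 5 correlated at 0.902 to 0.926 with each other. It had the highest sum of FPKM (4868372, against 1880236 to 2580055 in the other 5) and the lowest share of protein-coding genes in that sum (10.4%, against 21.6% to 27.6%). Its estimated relative depth was 0.68, and those of the other 5 were 0.787 to 1, with MacA-N replicate 1 as 1. The summed level of 16 fibroblast markers was 642 FPKM in this library, 72.5 and 81.5 FPKM in the other MacA-2wk libraries and 50.2 to 101 FPKM in MacA-N. All 6 libraries were run on lane 1.

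After 2 weeks of tumour, 125 of 17156 tested genes rose in MacA (0.729% of all tested) and 10 fell (0.0583%). Among the higher genes were antiviral genes of the interferon response, the 3 C1q genes, the CD11b gene Itgam, the arginine-degrading enzyme Arg1 and the metalloproteinases Mmp12 and Mmp14. Entpd1, the ectonucleotidase CD39, was among the lower genes. A gene was called when limma gave a Benjamini-Hochberg adjusted p under 0.05 and the difference was at least 2-fold, and a log2 difference is the mean of log2(FPKM + 1) in MacA-2wk minus that in MacA-N. Of the 135 called genes 132 did not overlap between the groups. All 3 MacA-2wk libraries were above all 3 MacA-N libraries in 1650 genes (9.62%) and below them in 855 (4.98%). The median log2 difference of all tested genes was 0.05, and 54.4% were above 0. Counts of list members below are to be read beside these shares of all tested genes. The tested genes include some near 0 in MacA, since a mean of 1 FPKM in any group was enough. Such genes are unlikely to be called, which can lower the shares. With a filter at a group mean of 5 FPKM, 141 of 12325 tested genes were higher.

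The count of calls rested on the spread pooled over all 8 groups. A fit of the 6 MacA libraries alone called 4 genes, and 2 of the 135 were among them, the interferon regulatory factor Irf7 and the argininosuccinate synthase Ass1. An exact permutation test of 3 against 3 libraries cannot give a two-sided p below 0.1. In the 13 other alternatives 33 of the 135 calls held in every one, 32 of them higher and Entpd1 lower. Leaving out MacA-N replicate 1 or 2 gave 79 or 81 higher genes, leaving out MacA-2wk replicate 2 gave 212, and leaving out the library that stood apart gave 92. The lower genes numbered 6 without MacA-N replicate 2, 4 without MacA-2wk replicate 1 and 32 without MacA-2wk replicate 2. Without the library that stood apart 82 of the 135 genes were called again.

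**Figure D1:**
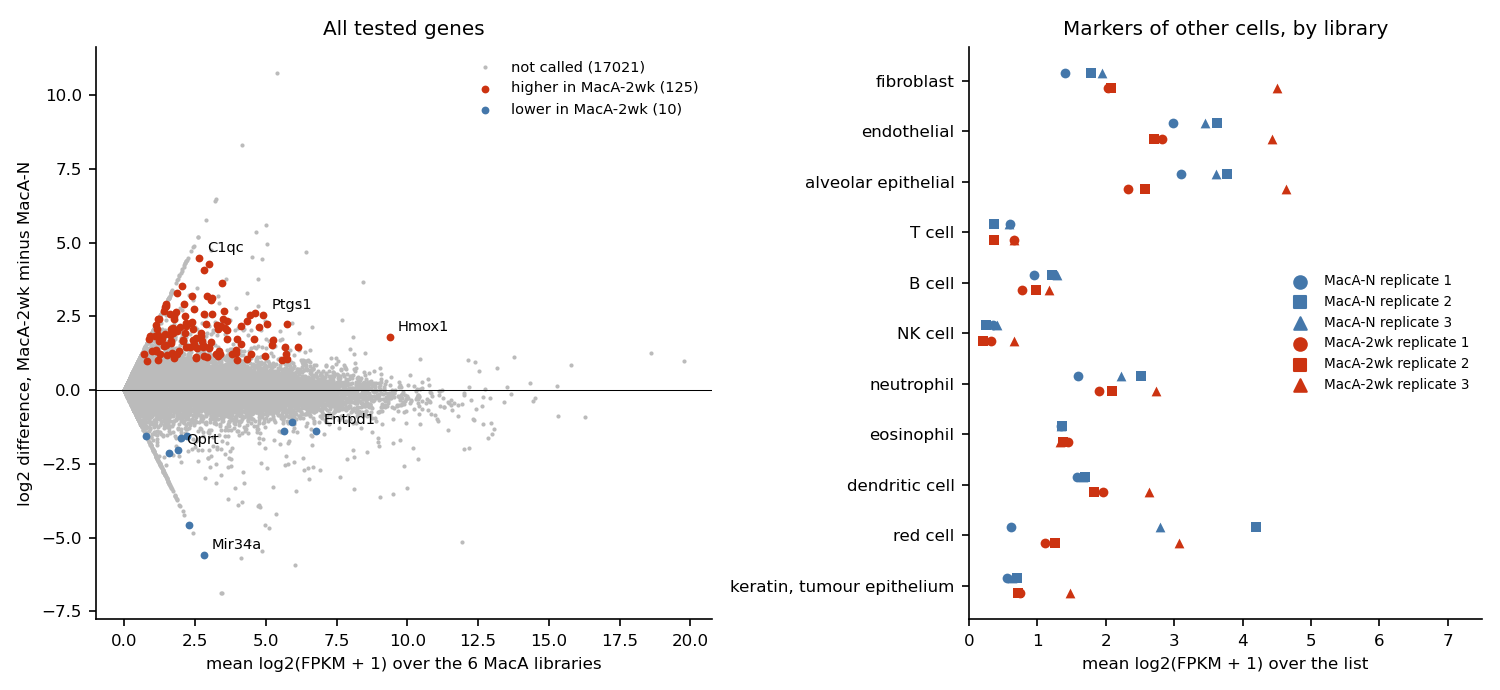
Left, each tested gene by its mean log2(FPKM + 1) over the 6 MacA libraries (x) and its log2 difference, MacA-2wk minus MacA-N (y), with the 125 higher genes in red and the 10 lower genes in blue. Right, the mean log2(FPKM + 1) of marker lists of other cells in each library, where the third MacA-2wk library lies to the right of the other 5 for fibroblast, endothelial and alveolar epithelial markers.

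The type I interferon response is switched on when interferon-alpha or interferon-beta binds its receptor and a complex of transcription factors binds DNA elements of repeated GAAA. Of 39 tested type I interferon-stimulated genes, 14 rose and none fell, beside 0.729% of all tested genes. The median log2 difference of the list was 0.92, and 39 of 39 members were above 0. In 21 of 39 all MacA-2wk libraries were above all MacA-N libraries, beside 9.62% of all tested genes. The 14 were Isg15, Ifit1, Ifit2, Ifit3, Oas2, Oas3, Oasl2, Rsad2, Cmpk2, Usp18, Irf7, Ifi27l2a, Rtp4 and Ifi204.

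The promoters of these genes are shown because the interferon-activated complex binds such elements. A motif of GAAA, any 2 bases and GAAA was searched on both strands in the 250 bases before the RefSeq start site (GRCm38.p6), where overlapping matches count separately. Of the 14 called genes 9 had an entry in the RefSeq table, and 5 of these 9 (55.6%) held the motif. It was found in 936 of 27025 genes of the whole table (3.46%), in 5 of 18 uncalled members of the list with an entry (27.8%) and in 6 of 84 other higher genes with an entry (7.14%). The 6, named after their values were seen, were Aif1, Cxcl10, Gm12250, Igtp, Slfn5 and Slfn8. A match is a run of letters and does not show that a factor binds there. The 5 windows follow, 5′ to 3′ on the strand of the gene, with 25 bases on each side and the matches, or their reverse complement (TTTC, any 2 bases, TTTC), in capitals.
Isg15: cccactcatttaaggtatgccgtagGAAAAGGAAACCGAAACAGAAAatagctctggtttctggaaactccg
Ifit1: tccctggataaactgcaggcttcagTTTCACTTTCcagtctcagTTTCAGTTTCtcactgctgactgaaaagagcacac
Ifit3: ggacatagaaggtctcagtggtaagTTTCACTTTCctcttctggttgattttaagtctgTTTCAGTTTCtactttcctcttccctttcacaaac
Oas3: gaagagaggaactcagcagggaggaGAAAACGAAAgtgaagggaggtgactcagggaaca
Rsad2: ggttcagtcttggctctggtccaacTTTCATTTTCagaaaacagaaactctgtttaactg
The Isg15 window is chr4:156200850-156200921 on the minus strand, with 3 overlapping matches 56 to 78 bases before the start site. Ifit1 is shown at chr19:34640760-34640838 and Ifit3 at chr19:34583348-34583441, both on the plus strand and each with 2 matches. Oas3 is at chr5:120777700-120777759 and Rsad2 at chr12:26456538-26456597, both on the minus strand with 1 match. The 250 bases of Cmpk2, Ifit2, Irf7 and Oasl2 held no match, and Ifi204, Ifi27l2a, Oas2, Rtp4 and Usp18 had no entry.

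Irf7, the transcription factor that amplifies interferon production, was at 7.94, 8.24 and 7.87 FPKM in MacA-N and 48.3, 41.2 and 45.1 FPKM in MacA-2wk (log2 difference 2.34, SE 0.35, adjusted p = 0.00121). The naive libraries were close to each other, and every tumour library was far above them. Isg15, a ubiquitin-like modifier of proteins, was at 4.56, 7.19 and 6.04 FPKM in MacA-N and 20.4, 16.9 and 29.8 FPKM in MacA-2wk (log2 difference 1.73, SE 0.30, adjusted p = 0.00588). Its groups did not overlap either, and both genes kept their call without any 1 of the 6 libraries.

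The OAS enzymes make oligoadenylates that activate RNase L. Oas3 was at 0.398, 0.478 and 0.43 FPKM in MacA-N and 9.07, 6.88 and 5.72 FPKM in MacA-2wk (log2 difference 2.50, SE 0.29, adjusted p = 1.10e-04). Oas2 was at 0.845, 0 and 0.473 FPKM in MacA-N and 3.46, 5.43 and 4.13 FPKM in MacA-2wk (log2 difference 1.92, SE 0.35, adjusted p = 0.00776). Oasl2, an OAS-like protein, was at 1.9, 7.12 and 3.77 FPKM in MacA-N and 31.2, 21 and 22.8 FPKM in MacA-2wk (log2 difference 2.41, SE 0.33, adjusted p = 5.09e-04). All 3 genes were separate between the groups, with the tumour libraries close together for Oas2 and Oasl2.

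The IFIT proteins bind foreign RNA. Ifit1 was at 1.83, 0.777 and 0.977 FPKM in MacA-N and 11.9, 7.83 and 6.95 FPKM in MacA-2wk (log2 difference 2.17, SE 0.36, adjusted p = 0.00349). Ifit2 was at 0.553, 0.773 and 0.442 FPKM in MacA-N and 4.45, 4.6 and 5.75 FPKM in MacA-2wk (log2 difference 1.90, SE 0.28, adjusted p = 0.00104). Ifit3 was at 0.39, 0 and 0.89 FPKM in MacA-N and 4.15, 3.47 and 3.06 FPKM in MacA-2wk (log2 difference 1.72, SE 0.37, adjusted p = 0.0276). Levels stayed low even after the change, at 3.06 to 11.9 FPKM in MacA-2wk. Rsad2 (viperin, an antiviral enzyme) was at 1.96, 1.74 and 0.543 FPKM in MacA-N and 7.84, 5.95 and 5.8 FPKM in MacA-2wk (log2 difference 1.69, SE 0.35, adjusted p = 0.0202). Its genomic neighbour Cmpk2, a mitochondrial nucleotide kinase, was at 0.334, 0.212 and 0.0381 FPKM in MacA-N and 2.83, 2.31 and 5.35 FPKM in MacA-2wk (log2 difference 1.86, SE 0.31, adjusted p = 0.00355). Both genes were separate between the groups.

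Usp18, which removes Isg15 from proteins and restrains the interferon receptor, was listed at 0 in every naive library and had 2.43, 1.01 and 5.45 FPKM in the tumour libraries (adjusted p = 0.011). Rtp4, an interferon-induced chaperone, was at 4.75, 3.25 and 5.59 FPKM in MacA-N and 22.6, 22.7 and 36.7 FPKM in MacA-2wk (log2 difference 2.34, SE 0.26, adjusted p = 1.10e-04). Ifi27l2a was at 4.72, 11 and 9.69 FPKM in MacA-N and 69.5, 30.1 and 65.3 FPKM in MacA-2wk (log2 difference 2.54, SE 0.34, adjusted p = 5.09e-04). Ifi204, a DNA sensor of the HIN family, was at 8.42, 8.44 and 7.54 FPKM in MacA-N and 26.6, 23.3 and 13.7 FPKM in MacA-2wk (log2 difference 1.23, SE 0.25, adjusted p = 0.0168). For Rtp4 and Ifi27l2a the lowest tumour library was more than 2 times the highest naive library. The smaller difference of Ifi204 lost its call without any 1 of the MacA-N libraries or MacA-2wk replicate 1.

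Of the other interferon calls, leaving out 1 library ended those of Ifit3 (MacA-N replicate 1 or 2, MacA-2wk replicate 1 or 3), Rsad2 (MacA-N replicate 3, MacA-2wk replicate 1 or 3), Oas2 (MacA-N replicate 2) and Usp18 (MacA-2wk replicate 3). Without the library that stood apart 12 members of the type I interferon list were called, and with a pseudocount of 5 the number was 6. Among the 25 uncalled members the most abundant was Lgals3bp, at 194, 330.1 and 216 FPKM in MacA-N and 383, 266 and 233 FPKM in MacA-2wk. Ifitm3, a membrane protein that blocks virus entry, was at 32.3, 84.6 and 71.9 FPKM in MacA-N and 109.6, 73 and 427 FPKM in MacA-2wk (log2 difference 1.36, SE 0.48, adjusted p = 0.272). It overlapped between the groups, and its highest value was in the library that stood apart.

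**Figure D2:**
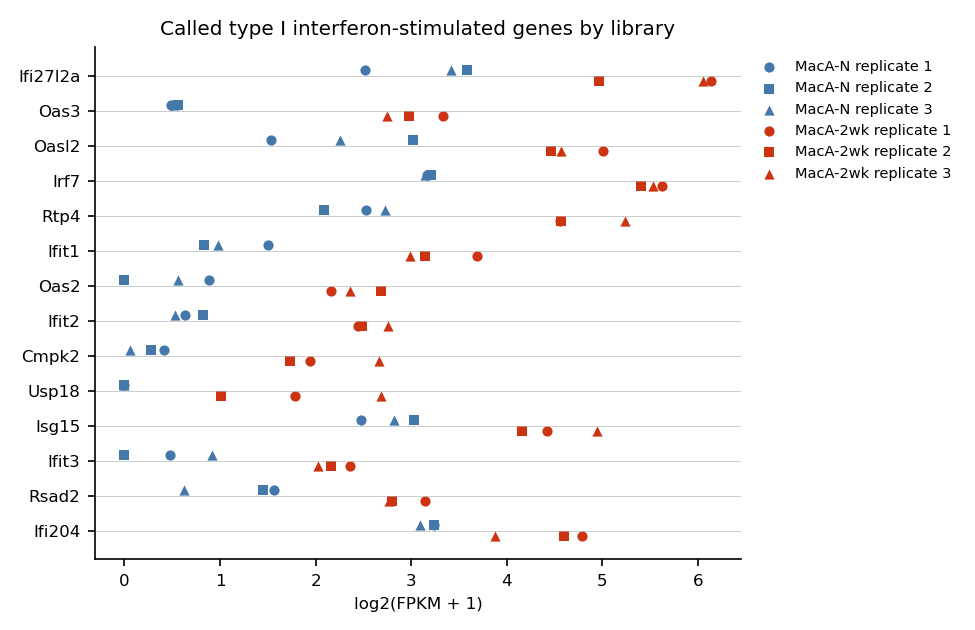
Log2(FPKM + 1) (x) of the 14 called type I interferon-stimulated genes (y) in each MacA-N library (blue) and MacA-2wk library (red), with 1 symbol per replicate number. The red points lie to the right of all blue points in every row, and the third MacA-2wk library is not the highest for Irf7, Oas3 or Ifit1.

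Interferon-gamma, made by T and NK cells, acts on an overlapping set of genes. Of 29 tested interferon-gamma inducible genes 4 rose (0.729% of all tested genes). Above 0 were 21 (54.4% of all tested genes), with a median log2 difference of 0.69. In 15 of 29 all tumour libraries were above all naive ones (9.62% of all tested genes). At an unadjusted p under 0.05 in limma 16 were higher (7.64% of all tested genes) and none lower. The 4 were Cxcl9, Cxcl10, Irf1 and Igtp, and 2 members of the list were called without MacA-N replicate 1, without MacA-N replicate 3 or without MacA-2wk replicate 3. Igtp, an immunity-related GTPase, was at 4.11, 3.64 and 4.67 FPKM in MacA-N and 8.72, 9.81 and 12.1 FPKM in MacA-2wk (log2 difference 1.12, SE 0.24, adjusted p = 0.0246). Irf1, a transcription factor of this response, was at 34.4, 33.3 and 29.4 FPKM in MacA-N and 55.3, 59 and 88.5 FPKM in MacA-2wk (log2 difference 1.01, SE 0.17, adjusted p = 0.0047). Igtp lost its call without any 1 of the MacA-N libraries or MacA-2wk replicate 3, and Irf1 without replicate 3 of either group. The abundant members Psmb8 (an immunoproteasome subunit, -0.09) and Cd274 (PD-L1, -0.18) had log2 differences near 0.

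CXC chemokines direct neutrophils and T cells into tissue, and 4 of 11 tested rose (0.729% of all tested genes). Cxcl9, which attracts T cells through Cxcr3, was at 0.701, 1.68 and 1.69 FPKM in MacA-N and 15.1, 9.82 and 7.09 FPKM in MacA-2wk (log2 difference 2.28, SE 0.31, adjusted p = 5.23e-04). Cxcl10, a ligand of the same receptor, was at 17.6, 31.1 and 14.6 FPKM in MacA-N and 118, 56.1 and 46.7 FPKM in MacA-2wk (log2 difference 1.71, SE 0.32, adjusted p = 0.011). Cxcl16, a membrane-bound ligand of Cxcr6, was at 4.67, 3.7 and 3.17 FPKM in MacA-N and 13.5, 7.38 and 17.3 FPKM in MacA-2wk (log2 difference 1.44, SE 0.22, adjusted p = 0.00121). In all 3 the groups were separate, and the first MacA-2wk library was highest for Cxcl9 and Cxcl10. Cxcl1, a neutrophil attractant, was at 9.65, 12.8 and 14.2 FPKM in MacA-N and 81.1, 27.6 and 33.1 FPKM in MacA-2wk (log2 difference 1.72, SE 0.38, adjusted p = 0.0373). The call of Cxcl10 was lost without MacA-N replicate 1, MacA-N replicate 3 or MacA-2wk replicate 1, and that of Cxcl1 in 9 of the 14 alternatives. MacB2-2wk had a mean of 1105 FPKM of Cxcl10, above any MacA library. Of 17 tested MHC class I genes 1 rose, the transactivator Nlrc5, at 1.05, 0.282 and 0.541 FPKM in MacA-N and 8.18, 3.26 and 6.99 FPKM in MacA-2wk (log2 difference 2.09, SE 0.30, adjusted p = 0.00102), while H2-K1 was at 381, 339.9 and 370.2 FPKM in MacA-N and 513, 508 and 335 FPKM in MacA-2wk.

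No inflammatory CC chemokine among 12 tested was called by limma, and 1 had an unadjusted p under 0.05. At that p stood 7.64% of all tested genes as higher and 3.16% as lower in MacA-2wk. Among 16 tested inflammatory cytokine genes none was called, though 14 were above 0 and 8 had an unadjusted p under 0.05, all 8 higher in MacA-2wk (7.64% of all tested genes). Il1b, at 134, 238 and 402 FPKM in MacA-N and 1020.5, 629.7 and 279.6 FPKM in MacA-2wk, overlapped between the groups. Il6, chosen after its values were seen, was at 0.682, 0.578 and 1.95 FPKM in MacA-N and 11.7, 6.22 and 5.68 FPKM in MacA-2wk and was separate, with an adjusted p of 0.0612.

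The 3 genes of C1q, the recognition molecule of the classical complement pathway, had log2 differences among the largest of all called genes. They lie beside each other on chromosome 4 (C1qb at chr4:136880129-136886187, C1qc at chr4:136889804-136893065 and C1qa at chr4:136895917-136898803, all on the minus strand, GENCODE M21 on GRCm38). C1qc was at 0.201, 0.893 and 0 FPKM in MacA-N and 37.9, 16.4 and 37 FPKM in MacA-2wk (log2 difference 4.49, SE 0.29, adjusted p = 8.75e-08). C1qa was at 0.36, 0.915 and 1.23 FPKM in MacA-N and 58.4, 13.7 and 46.8 FPKM in MacA-2wk (log2 difference 4.27, SE 0.34, adjusted p = 1.31e-06). C1qb was at 2.72, 2.02 and 1.55 FPKM in MacA-N and 67, 15.9 and 47.1 FPKM in MacA-2wk (log2 difference 3.64, SE 0.33, adjusted p = 9.17e-06). No naive library passed 3 FPKM and no tumour library was below 13 FPKM in any of the 3 genes. In each the second MacA-2wk library was the lowest of its group.

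Of 20 tested complement genes 5 rose (0.729% of all tested genes), none fell and 11 were above 0 (54.4%). C3ar1, the receptor of the fragment C3a, was at 0.292, 0.124 and 0.389 FPKM in MacA-N and 7.96, 2.99 and 11.1 FPKM in MacA-2wk (log2 difference 2.58, SE 0.32, adjusted p = 2.36e-04). Itgam, the alpha chain of complement receptor Mac-1 and the gene of CD11b, was at 1.58, 0.68 and 4.65 FPKM in MacA-N and 24.5, 10.3 and 17.2 FPKM in MacA-2wk (log2 difference 2.58, SE 0.35, adjusted p = 5.23e-04). Itgam was below 5 FPKM in every naive library and above 10 FPKM in every tumour library. Of the abundant uncalled members, Cfb (factor B of the alternative pathway) was at 26.4, 31.9 and 25.2 FPKM in MacA-N and 64.6, 64.5 and 26.4 FPKM in MacA-2wk, where the third tumour library lay in the naive range. C3 itself was at 34.8, 46.9 and 44 FPKM in MacA-N and 35.7, 39.6 and 11.3 FPKM in MacA-2wk and overlapped.

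The C1q genes and Itgam are also on a list of 25 interstitial and monocyte-derived macrophage genes. Of the 25, 5 rose (0.729% of all tested genes) and none fell, with a median log2 difference of 0.84 and 20 members above 0. All 5 calls held without any 1 of the 6 libraries, and without the library that stood apart 6 members of this list and 6 of the complement list were called. The summed level of the 25 genes was 1049 to 1185 FPKM in MacA-N and 949.97 to 2092 FPKM in MacA-2wk, so the sums overlapped. The mean log2(FPKM + 1) of the list did not, at 2.75, 2.85 and 2.90 in MacA-N and 4.30, 3.61 and 4.10 in MacA-2wk. In 12 of 25 all tumour libraries were above all naive ones (9.62% of all tested genes). At an unadjusted p under 0.05 in limma 13 were higher (7.64% of all tested genes) and none lower.

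After 2 weeks the mean levels of C1qc and Itgam were higher in MacB2 and MacB3 than in MacA. C1qc had means of 56.8 FPKM in MacB2-2wk and 1252 FPKM in MacB3-2wk, against 30.4 FPKM in MacA-2wk. Itgam had 274 and 300.0 FPKM there against 17.3 FPKM. Of 3 other genes of the MacB populations, chosen after their values were seen, Ccr2 and Cx3cr1 were low in MacA and Apoe was not. Ccr2, the receptor that brings monocytes out of the blood, was at 1.22, 2.38 and 2.69 FPKM in MacA-N and 6.04, 3.9 and 3.63 FPKM in MacA-2wk (223 FPKM in MacB2-2wk). Cx3cr1, the fractalkine receptor, was at 0.68, 0.756 and 0.873 FPKM in MacA-N and 3.48, 1.24 and 1.46 FPKM in MacA-2wk (66.4 FPKM in MacB2-2wk). Both were higher in all 3 tumour libraries than in the naive ones, with adjusted p values of 0.136 and 0.158. Apoe, at 74.3, 50.8 and 64.6 FPKM in MacA-N and 248, 132 and 45.5 FPKM in MacA-2wk (3883 FPKM in MacB3-2wk), overlapped. In bulk samples more cells of another type and more RNA per cell of a transcript cannot be told apart, and the part of MacB cells in these differences was not tested.

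Of 14 tested classical monocyte genes 1 rose (0.729% of all tested genes) and 10 were above 0. At an unadjusted p under 0.05 in limma 5 were higher (7.64% of all tested genes) and none lower. In 5 of 14 all tumour libraries were above all naive ones (9.62% of all tested genes), and in 1 below (4.98%). Ly6c2, a monocyte surface protein gene with near-identical copies, was at 1.53, 3.46 and 2.72 FPKM in MacA-N and 7.94, 9.51 and 18.7 FPKM in MacA-2wk (log2 difference 1.82, SE 0.37, adjusted p = 0.0168), against a mean of 1641 FPKM in MacB2-2wk. Its call was lost in 6 of the 14 alternatives. Ifitm6, chosen after its values were seen, had 640.4 FPKM in MacB2-2wk and was at 0.902, 0 and 2.75 FPKM in MacA-N and 0, 0.366 and 0 FPKM in MacA-2wk. Of 14 tested nonclassical monocyte genes none was called by limma, with 1 higher and 1 lower at an unadjusted p under 0.05 (10.8% of all tested genes in either direction).

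**Figure D3:**
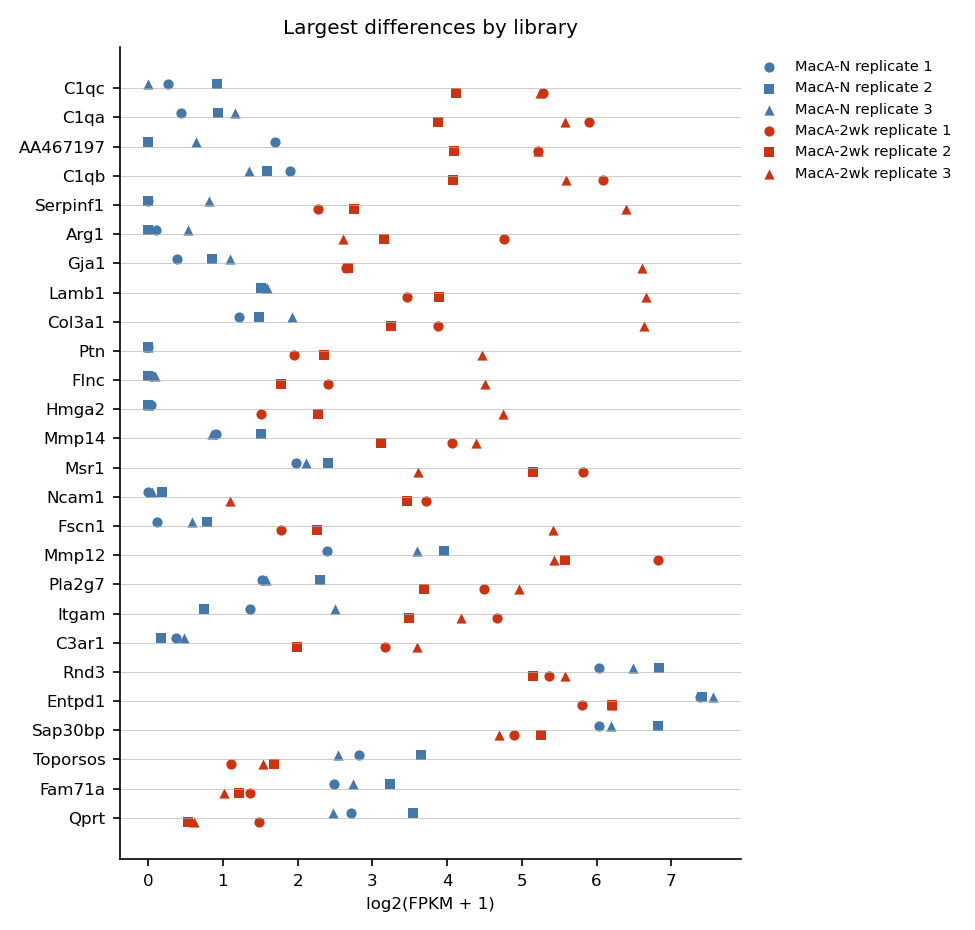
Log2(FPKM + 1) (x) in each MacA-N library (blue) and MacA-2wk library (red) for the 20 named genes with the highest and the 6 with the lowest log2 difference (y). The C1q genes are separated widely, with the second MacA-2wk library as the lowest red point, whereas for Serpinf1, Gja1, Lamb1 and Col3a1 the third MacA-2wk library lies far to the right of the other red points.

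Several enzymes and receptors of tumour-associated macrophages rose with the groups separate. Arg1, which splits arginine into ornithine and urea, was at 0.0787, 0 and 0.449 FPKM in MacA-N and 26.2, 7.95 and 5.09 FPKM in MacA-2wk (log2 difference 3.30, SE 0.44, adjusted p = 4.56e-04). The first tumour library was the highest, the naive libraries were near 0, and a pseudocount of 5 ended the call. Mean Arg1 was 93.3 FPKM in MacB2-2wk and 570.1 FPKM in MacB3-2wk. Of 19 tested interleukin-4 response genes Arg1 was the only 1 called (0.729% of all tested genes were called higher), and 9 were above 0 (54.4%). At an unadjusted p under 0.05 in limma 2 were higher (7.64% of all tested genes) and 1 lower (3.16%). Clec7a (dectin-1, a receptor of fungal glucan) had a log2 difference of -0.15 and Mrc1 (the mannose receptor) of -0.23.

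Mmp12, the macrophage elastase, was at 4.26, 14.5 and 11 FPKM in MacA-N and 112, 47 and 42 FPKM in MacA-2wk (log2 difference 2.63, SE 0.52, adjusted p = 0.0148). Mmp14, a membrane-anchored collagenase, was at 0.877, 1.86 and 0.811 FPKM in MacA-N and 15.7, 7.67 and 19.8 FPKM in MacA-2wk (log2 difference 2.76, SE 0.33, adjusted p = 1.88e-04). They were the 2 genes called among 28 tumour-supporting secreted factors (0.729% of all tested genes were called higher). Of the 28, 26 were above 0 (54.4% of all tested genes), with a median log2 difference of 0.72. At an unadjusted p under 0.05 in limma 13 were higher (7.64% of all tested genes) and 1 lower (3.16%). Without the first library of either group the call of Mmp12 was lost. Spp1 (osteopontin), at 155, 149 and 163 FPKM in MacA-N and 717, 313 and 299 FPKM in MacA-2wk, was separate between the groups but did not pass (adjusted p = 0.216). Tgfb1 was lower in all 3 tumour libraries, at 370.5, 439.7 and 390.4 FPKM in MacA-N and 285, 294 and 139 FPKM in MacA-2wk (adjusted p = 0.293).

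Msr1, the class A scavenger receptor of modified lipoprotein, was at 2.92, 4.32 and 3.34 FPKM in MacA-N and 55.7, 34.6 and 11.2 FPKM in MacA-2wk (log2 difference 2.69, SE 0.40, adjusted p = 0.00111). Mfge8, a bridging protein for the uptake of apoptotic cells, was at 7.29, 9.76 and 10.5 FPKM in MacA-N and 26.1, 20.8 and 22.3 FPKM in MacA-2wk (log2 difference 1.25, SE 0.22, adjusted p = 0.00653). These were the 2 called of 25 scavenger and uptake receptor genes (0.729% of all tested genes were called higher), and 14 were above 0 (54.4%). At an unadjusted p under 0.05 in limma 7 of the 25 were higher (7.64% of all tested genes) and none lower. For Msr1 the third tumour library was the lowest of its group and still above every naive library. Marco, another scavenger receptor, was at 414, 258 and 247 FPKM in MacA-N and 718, 411 and 106 FPKM in MacA-2wk, and its log2 difference of 0.08 turned negative without MacA-N replicate 2, MacA-N replicate 3, MacA-2wk replicate 1 or MacA-2wk replicate 2.

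Pla2g7, which breaks down platelet-activating factor, was at 1.88, 3.92 and 1.99 FPKM in MacA-N and 21.5, 12 and 30.3 FPKM in MacA-2wk (log2 difference 2.58, SE 0.37, adjusted p = 9.02e-04). AA467197, listed as an expressed sequence, was at 2.23, 0 and 0.563 FPKM in MacA-N and 36.1, 16.1 and 36.2 FPKM in MacA-2wk (log2 difference 4.06, SE 0.39, adjusted p = 1.62e-05). Ncam1, an adhesion molecule, was at 0, 0.136 and 0.033 FPKM in MacA-N and 12.1, 9.99 and 1.14 FPKM in MacA-2wk (log2 difference 2.68, SE 0.48, adjusted p = 0.00776). Unlike most of the higher genes, Ncam1 was lower in MacB2-2wk (1.45 FPKM) and MacB3-2wk (0.368 FPKM) than the MacA-2wk mean of 7.75 FPKM. Ier3, an immediate early gene of stress and growth signals, was at 32.9, 52.8 and 40.8 FPKM in MacA-N and 168, 77.8 and 120.1 FPKM in MacA-2wk (log2 difference 1.47, SE 0.27, adjusted p = 0.0101). It was the only 1 of 22 immediate early genes called (0.729% of all tested genes were called higher). Its call ended without MacA-N replicate 1 or MacA-2wk replicate 1. The list leaned the other way, with 7 of 22 above 0 (54.4% of all tested genes) and a median log2 difference of -0.25. At an unadjusted p under 0.05 in limma 5 were lower (3.16% of all tested genes) and 2 higher (7.64%). In 5 of 22 all tumour libraries were below all naive ones (4.98%), and in 3 above (9.62%). Jun fell short of the 2-fold minimum, at 276, 304 and 497 FPKM in MacA-N and 156, 169.7 and 208 FPKM in MacA-2wk (log2 difference -0.97, SE 0.22, adjusted p = 0.0364).

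Further higher genes, named after their values were seen, act in metabolism of iron, amino acids and nucleotides. Hmox1, which breaks down heme, was at 297, 493 and 304 FPKM in MacA-N and 1835, 1086 and 942 FPKM in MacA-2wk (log2 difference 1.80, SE 0.35, adjusted p = 0.0146). Slc40a1, the iron exporter ferroportin, was at 1.7, 1.4 and 0.97 FPKM in MacA-N and 14.4, 10.6 and 7.58 FPKM in MacA-2wk (log2 difference 2.30, SE 0.45, adjusted p = 0.0146). Slc11a1, a metal transporter of the phagosome, was at 20.9, 7.67 and 10.1 FPKM in MacA-N and 85.2, 45.6 and 43.3 FPKM in MacA-2wk (log2 difference 2.13, SE 0.31, adjusted p = 0.00104). In each the groups were separate and the first tumour library was highest. The calls of Hmox1 and Slc40a1 were lost in 4 of the 14 alternatives. Ptgs1, the cyclooxygenase that starts prostaglandin synthesis, was at 10.6, 8.1 and 16.7 FPKM in MacA-N and 81.1, 55.4 and 79.9 FPKM in MacA-2wk (log2 difference 2.55, SE 0.35, adjusted p = 5.23e-04). Its mean in MacA-2wk, 72.1 FPKM, was above those of MacB2-2wk (28.6 FPKM) and MacB3-2wk (67.3 FPKM).

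Psat1, of serine synthesis, was at 8.79, 5.39 and 9.77 FPKM in MacA-N and 32.2, 16.6 and 40.3 FPKM in MacA-2wk (log2 difference 1.72, SE 0.30, adjusted p = 0.00573). Cad, the enzyme that begins pyrimidine synthesis, was at 2.89, 3.15 and 4.77 FPKM in MacA-N and 13.6, 18 and 32.6 FPKM in MacA-2wk (log2 difference 2.21, SE 0.33, adjusted p = 0.00121). Smox, which oxidises the polyamine spermine, was at 11.3, 16.4 and 13.5 FPKM in MacA-N and 33.1, 29.4 and 36.5 FPKM in MacA-2wk (log2 difference 1.22, SE 0.16, adjusted p = 4.32e-04). All 3 kept their call in every alternative but the fit of 6 libraries. Ass1, the enzyme that rebuilds arginine from citrulline, was near 0 in MacA-N (0, 0.0852 and 0.25 FPKM) and at 2.89, 2.92 and 3.06 FPKM in MacA-2wk (log2 difference 1.84, SE 0.31, adjusted p = 0.0042). Its tumour values were nearly equal, and it was lost only with a pseudocount of 5.

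Entpd1 encodes CD39, which removes phosphates from extracellular ATP and ADP, and lies at chr19:40612366-40741602 on the plus strand. It was at 166, 169 and 187 FPKM in MacA-N and 55, 72.7 and 73.2 FPKM in MacA-2wk (log2 difference -1.37, SE 0.18, adjusted p = 4.56e-04). Every tumour library was below the lowest naive library, and the call held in 13 of 14 alternatives. Adora2b, a receptor of the adenosine that is the end product of this pathway, rose, at 0.854, 1.08 and 0.557 FPKM in MacA-N and 4.42, 2.67 and 7.26 FPKM in MacA-2wk (log2 difference 1.59, SE 0.30, adjusted p = 0.0107). Its call was lost with a pseudocount of 5, without MacA-N replicate 3 and without MacA-2wk replicate 3. Of 19 tested genes of extracellular nucleotides and adenosine these were the 2 called. Of all tested genes 0.729% were called higher and 0.0583% lower. Above 0 were 9 of the 19 (54.4% of all tested genes). Nt5e (CD73, which makes adenosine from AMP) was at 7.31, 6.58 and 8.34 FPKM in MacA-N and 20.4, 10.9 and 8.27 FPKM in MacA-2wk, overlapping between the groups, and the purine receptor P2ry14 was at 46.4, 60.4 and 55.6 FPKM in MacA-N and 57.3, 54.1 and 47.9 FPKM in MacA-2wk.

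The other lower genes were less stable. Rnd3, a small GTPase that restrains actin contraction, was at 64.2, 113 and 88.6 FPKM in MacA-N and 40.2, 34.5 and 46.9 FPKM in MacA-2wk (log2 difference -1.08, SE 0.20, adjusted p = 0.00932). Sap30bp, whose product binds a subunit of a histone deacetylase complex, was at 64.2, 113 and 72 FPKM in MacA-N and 28.8, 37.3 and 24.9 FPKM in MacA-2wk (log2 difference -1.40, SE 0.30, adjusted p = 0.0299). Qprt, an enzyme of NAD synthesis, was at 5.55, 10.6 and 4.56 FPKM in MacA-N and 1.78, 0.441 and 0.534 FPKM in MacA-2wk (log2 difference -2.03, SE 0.42, adjusted p = 0.0202). Each was separate between the groups and lost its call without at least 2 of the 6 libraries, MacA-N replicate 2 among them. Fam71a (-1.62) and Toporsos (-1.56), a transcript opposite Topors whose reads cannot be told apart from that gene without strand, also fell. The remaining 4 were Lgals2, Gm9795, Gm25897 and Mir34a, outside the naming rule. Mir34a, a short transcript, was at 317, 0 and 362 FPKM in MacA-N and listed at 0 in all MacA-2wk libraries, so its groups overlapped.

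No alveolar macrophage identity gene was called by limma among 32 tested, and 5 had an unadjusted p under 0.05, all lower (3.16% of all tested genes). The median log2 difference of the list was -0.46, 5 members were above 0, and in 13 all tumour libraries were below all naive libraries (4.98% of all tested genes). Pparg, the nuclear receptor that sets alveolar macrophage identity, was at 88.9, 125 and 106 FPKM in MacA-N and 85, 91.2 and 45.2 FPKM in MacA-2wk (log2 difference -0.58, SE 0.32, adjusted p = 0.547). Fabp4, a fatty acid binding protein, was at 303, 294 and 247 FPKM in MacA-N and 184, 167 and 118 FPKM in MacA-2wk (log2 difference -0.86, SE 0.32, adjusted p = 0.295). Car4, a carbonic anhydrase, was at 499, 534 and 439.5 FPKM in MacA-N and 813, 486 and 412 FPKM in MacA-2wk. Fabp4 was separate between the groups, while Pparg and Car4 overlapped. The mean log2(FPKM + 1) of the list was 8.14, 8.30 and 8.15 in MacA-N and 8.01, 8.04 and 7.33 in MacA-2wk, lowest in the library that stood apart. Its 642 FPKM of fibroblast markers stand beside that value, and their part in it was not tested.

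Lipid uptake and storage genes included 1 called member of 30 (0.729% of all tested genes were called higher), the scavenger receptor Msr1 given above. Above 0 were 7 of the 30 (54.4% of all tested genes). In 9 of 30 all tumour libraries were lower than all naive ones (4.98% of all tested genes), and in 2 higher (9.62%). At an unadjusted p under 0.05 in limma 7 were lower (3.16% of all tested genes) and 3 higher (7.64%). Fabp1, a fatty acid carrier, was at 590.0, 1555 and 734 FPKM in MacA-N and 333, 365 and 185 FPKM in MacA-2wk (log2 difference -1.63, SE 0.71, adjusted p = 0.41). Abcg1, which exports cholesterol, was at 943, 799 and 852 FPKM in MacA-N and 619, 681 and 470.5 FPKM in MacA-2wk (log2 difference -0.56, SE 0.19, adjusted p = 0.222). Plin2, the coat protein of lipid droplets, was at 746, 669 and 771 FPKM in MacA-N and 708, 656 and 391 FPKM in MacA-2wk. Abcg1 and Fabp1 were separate between the groups and did not pass the test. Of 20 tested cholesterol synthesis genes 6 were higher at an unadjusted p under 0.05 in limma (7.64% of all tested genes) and none lower. Above 0 were 19 (54.4% of all tested genes), and 1 rose (0.729%). It was the sterol desaturase Sc5d, at 10.9, 10.2 and 8.99 FPKM in MacA-N and 19.3, 21.3 and 22.9 FPKM in MacA-2wk (log2 difference 1.01, SE 0.23, adjusted p = 0.0476), and its call was lost in 12 of the 14 alternatives.

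None of 10 MHC class II genes was called by limma and 2 had an unadjusted p under 0.05, both lower (3.16% of all tested genes). No member was above 0 (54.4% of all tested genes), and the median log2 difference was -0.28. In 2 of 10 all tumour libraries were below all naive ones (4.98% of all tested genes). Cd74, the invariant chain, was at 942, 1822 and 1029 FPKM in MacA-N and 435, 1170.5 and 724 FPKM in MacA-2wk, and H2-Ab1 was at 347, 495 and 408 FPKM in MacA-N and 174, 484 and 487 FPKM in MacA-2wk. The first tumour library held the lowest values of both, and the groups overlapped. Fcgr1 (CD64, a receptor of immunoglobulin G) was at 23.8, 23.7 and 28.5 FPKM in MacA-N and 34.6, 36.2 and 30.7 FPKM in MacA-2wk (log2 difference 0.40, SE 0.16, adjusted p = 0.354), separate but within 2-fold. Csf1r, the receptor of macrophage colony-stimulating factor, was at 71.7, 75 and 67.6 FPKM in MacA-N and 95.4, 80 and 41.8 FPKM in MacA-2wk. Its log2 difference of -0.06 was 0.012 with protein-coding genes scaled to the same sum and 0.29 without MacA-2wk replicate 3.

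Among 25 glycolysis and hypoxia genes none was called by limma, 11 had an unadjusted p under 0.05, all higher (7.64% of all tested genes), and 22 were above 0. Slc2a1, the glucose transporter GLUT1, chosen after its values were seen, was at 14.3, 43.3 and 22.7 FPKM in MacA-N and 84.2, 53.4 and 116 FPKM in MacA-2wk (log2 difference 1.69, SE 0.41, adjusted p = 0.0593). Ldha, which makes lactate, was at 209.8, 173 and 193 FPKM in MacA-N and 263, 228 and 370.5 FPKM in MacA-2wk (log2 difference 0.55, SE 0.19, adjusted p = 0.243). Both were separate between the groups. No call was made by limma among 30 mitosis genes or 32 lysosome genes, each with 4 higher at an unadjusted p under 0.05, beside 7.64% of all tested genes. The same held for 30 DNA replication genes (4 higher and 1 lower at that p) and 15 checkpoint and costimulatory ligand genes (3 higher and 1 lower). Ube2c, of the machinery that ends mitosis, was at 42.2, 31.3 and 27 FPKM in MacA-N and 53.7, 33.1 and 50.1 FPKM in MacA-2wk, and Pcna, the clamp of replicating DNA, at 98.9, 176 and 109 FPKM in MacA-N and 113, 124 and 114 FPKM in MacA-2wk.

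**Figure D4:**
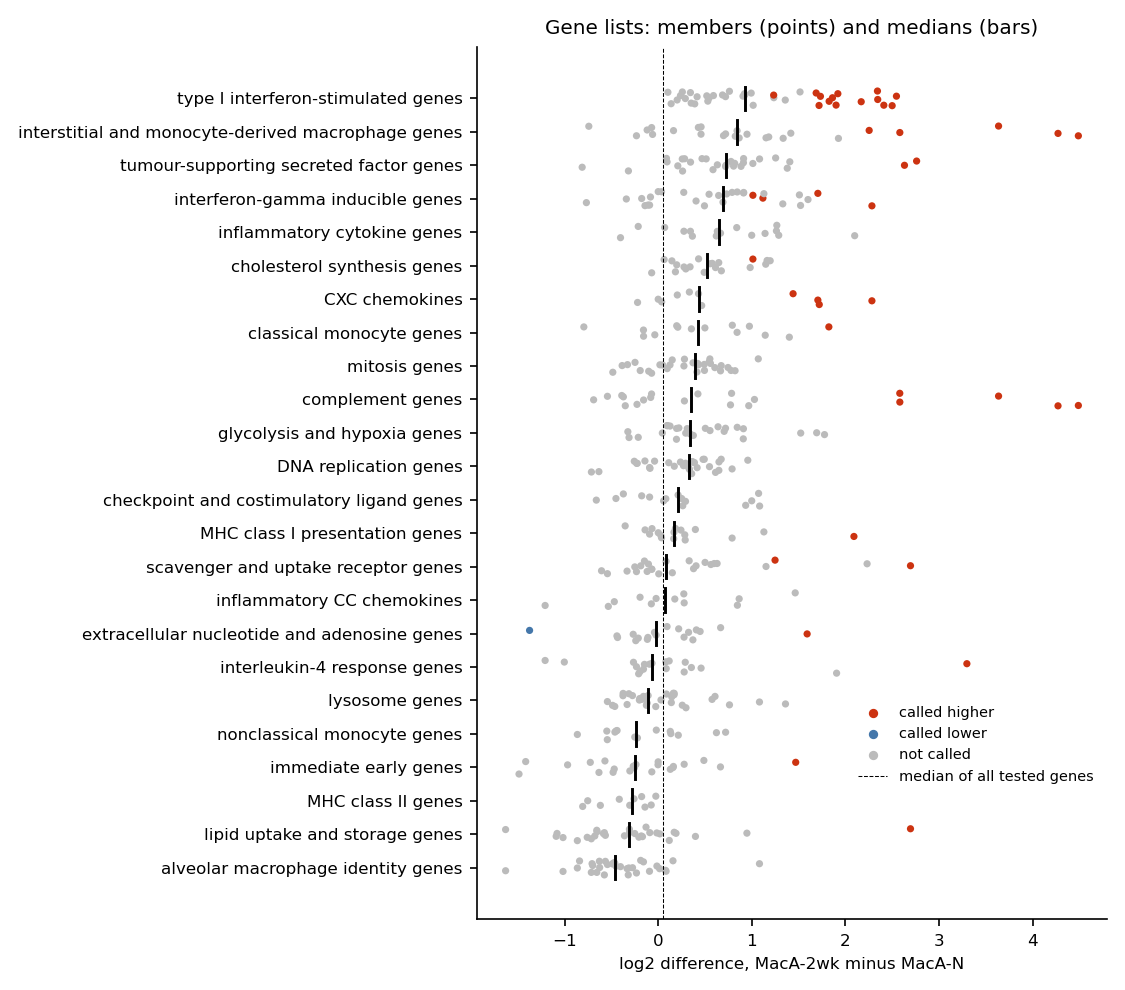
Log2 difference, MacA-2wk minus MacA-N (x), of each tested member (points) of 24 gene lists (y) with the median of the list (bar), and the median of all tested genes as a dashed line. Type I interferon-stimulated genes have the highest median, 0.92, with 14 called members in red, and alveolar macrophage identity genes the lowest, -0.46, with no called member.

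A set of higher genes followed the library that stood apart. Of the 125 higher genes 62 were highest in MacA-2wk replicate 3, 58 in replicate 1 and 5 in replicate 2. In 14 genes the third library was at least 3 times the next highest library, against 3 genes for the first and none for the second. Serpinf1, a secreted serpin of mesenchymal cells, was at 0, 0 and 0.761 FPKM in MacA-N and 3.84, 5.77 and 82.9 FPKM in MacA-2wk (log2 difference 3.54, SE 0.70, adjusted p = 0.0148). Col3a1, type III collagen, was at 1.31, 1.81 and 2.81 FPKM in MacA-N and 13.7, 8.52 and 98.7 FPKM in MacA-2wk (log2 difference 3.05, SE 0.65, adjusted p = 0.0247). Gja1, the gap junction protein connexin 43, was at 0.31, 0.809 and 1.14 FPKM in MacA-N and 5.24, 5.41 and 96.2 FPKM in MacA-2wk (log2 difference 3.19, SE 0.68, adjusted p = 0.0246). In each the third tumour library was far above the next, and the other tumour libraries were still above every naive library.

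Lamb1 (a laminin chain) had 10.1, 13.8 and 100 FPKM in MacA-2wk, Ptn (the growth factor pleiotrophin) 2.88, 4.09 and 21.2 FPKM, Flnc (a filamin) 4.29, 2.44 and 21.8 FPKM and Fscn1 (the actin bundler fascin) 2.44, 3.79 and 41.8 FPKM. Hmga2, a chromatin protein of fetal and tumour cells, was at 0.0285, 0 and 0 FPKM in MacA-N and 1.85, 3.82 and 25.9 FPKM in MacA-2wk (log2 difference 2.83, SE 0.52, adjusted p = 0.00917). Ptn was listed at 0 in every naive library, and Hmga2 at 0 in 2 of the 3. Without the third library the log2 differences were 2.25 for Serpinf1, 2.02 for Col3a1, 1.88 for Gja1, 2.13 for Lamb1, 2.05 for Flnc, 1.88 for Hmga2 and 1.52 for Fscn1, and the calls of Col3a1, Flnc and Fscn1 were lost. Leaving out naive libraries also ended calls, of Serpinf1, Lamb1 and Flnc without MacA-N replicate 1 or 2 and of Gja1, Col3a1 and Fscn1 without any 1 of the MacA-N libraries.

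Other fibroblast markers stood beside these genes. Of 16 fibroblast markers 2 rose, Serpinf1 and Col3a1 (0.729% of all tested genes), and 14 were above 0 (54.4%). At an unadjusted p under 0.05 in limma 7 were higher (7.64% of all tested genes) and none lower. In 5 of 16 all tumour libraries were above all naive ones (9.62% of all tested genes). Lum, a matrix proteoglycan chosen after its values were seen, was listed at 0 in MacA-N and at 1.31, 2.41 and 35.1 FPKM in MacA-2wk, and Dcn was at 1.76, 4.05 and 4.9 FPKM in MacA-N and 6.95, 7.75 and 81.5 FPKM in MacA-2wk. The mean of the summed list was 431 FPKM in MacB2-2wk. Of 16 endothelial markers none was called by limma, with none at an unadjusted p under 0.05, and their sums were 234 to 488 FPKM in MacA-N and 205 to 566 FPKM in MacA-2wk. Of 16 alveolar epithelial markers 1 rose (0.729% of all tested genes) and 4 were above 0 (54.4%). The 1 was Pdpn, at 14.7, 11.5 and 17.1 FPKM in MacA-N and 105, 51.8 and 66.9 FPKM in MacA-2wk (log2 difference 2.25, SE 0.48, adjusted p = 0.0248), a glycoprotein that macrophages can also carry. Its call was lost without any 1 of the MacA-N libraries and without MacA-2wk replicate 1 or 3. Scgb1a1, the secretoglobin of club cells, was at 561, 5198 and 2162 FPKM in MacA-N and 58.3, 84.6 and 662 FPKM in MacA-2wk. T cell sums were at most 13.5 FPKM, and neutrophil sums were 97.7 to 205 FPKM in MacA-N and 111 to 292 FPKM in MacA-2wk. Of 8 tested keratin and tumour-epithelium transcripts 1 rose, Hmga2, and the list summed to 63.25 FPKM in the third MacA-2wk library and 13.1 to 20.3 FPKM in the other 5. Of 11 tested dendritic cell markers 1 rose, Fscn1 (0.729% of all tested genes), and 10 were above 0 (54.4%). The mean log2(FPKM + 1) of the dendritic cell list was 2.63 in that library and 1.58 to 1.95 in the other 5, while its sums were 878 FPKM and 1105 to 1328 FPKM. The part of other cells in these differences was not tested.

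The change in MacA was set beside that of MacB2 from naive to 2 weeks. The difference between the 2 responses was called in 38 of 17156 genes (0.221%), 23 larger and 15 smaller in MacB2. Of the 125 genes higher in MacA, 103 had a positive log2 difference in MacB2 and 37 were called higher there. The shares of all tested genes in MacB2 are not given, so these 2 counts cannot be read as a shared response. Of the 125, 13 differed between the populations, all 13 with the smaller change in MacB2. Choosing genes by their rise in MacA, which is subtracted in this difference, favours that direction. The count of 38 ranged from 17 to 57 when 1 library was left out. It was 17 to 25 without any 1 of MacA-N replicates 1 to 3, MacA-2wk replicate 1, MacB2-N replicate 1 or 2 and MacB2-2wk replicate 1 or 3. Population and sequencing lane cannot be told apart, since all MacA libraries were on lane 1 and MacB2 replicates 1, 2 and 3 were on lanes 2, 3 and 7 in both groups. With the replicate number as a block 24 genes were called, 16 larger and 8 smaller in MacB2, and all 24 were among the 38. With the lane as a block, a fit added after the data were seen, 33 genes were called, 29 of them among the 38.

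C1qc had a log2 difference of 4.49 in MacA and 1.19 in MacB2 (difference of the 2 responses -3.29, SE 0.42, adjusted p = 0.00368). Ifi27l2a had 2.54 in MacA and -0.61 in MacB2 (difference -3.16, SE 0.48, adjusted p = 0.00864). Oas3 had 2.50 and -0.10 (difference -2.60, SE 0.41, adjusted p = 0.00864), and Itgam 2.58 and 0.00 (difference -2.58, SE 0.50, adjusted p = 0.0368). The call of Itgam was lost in 14 of 21 alternatives, among them the replicate block (adjusted p = 0.0643), and those of the other 3 in at most 2. For Ifi27l2a, Oas3 and Itgam MacB2-N was already at 353, 51.6 and 280.5 FPKM, above every MacA library. Entpd1 had -1.37 in MacA and 0.29 in MacB2 (difference 1.66, SE 0.26, adjusted p = 0.00864), with means of 189 and 231 FPKM in MacB2-N and MacB2-2wk. Arg1 (5.65 in MacB2) and Cxcl9 (3.69) rose in both, and their differences of 2.35 and 1.41 were not called.

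After 2 weeks 30 of the 125 higher genes had a higher mean in MacA than in MacB2, and 21 had a mean above both MacB2-2wk and MacB3-2wk. The shares of all tested genes are not given. Serpinf1, Gja1, Hmga2 and Bcat1 were in the 21 through the library that stood apart. In each of them MacA-2wk replicates 1 and 2 were below the MacB2-2wk mean (Gja1 5.24 and 5.41 FPKM against 25.0 FPKM). Slc40a1, Ncam1 and Cad were among the 21, at 10.9, 7.75 and 21.4 FPKM in MacA-2wk. Their means were 1.02, 1.45 and 8.34 FPKM in MacB2-2wk and 2.88, 0.368 and 11.4 FPKM in MacB3-2wk.

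**Figure D5:**
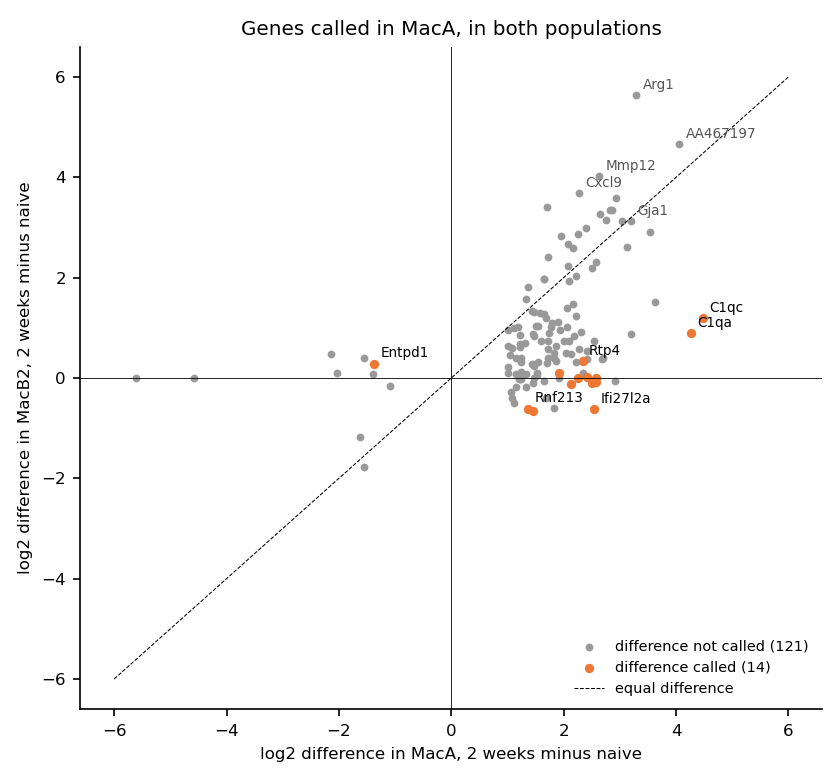
Log2 difference from naive to 2 weeks in MacA (x) and in MacB2 (y) for the 135 genes called in MacA, with the 14 whose responses differed between the populations in orange and equal differences on the dashed line. The orange genes higher in MacA lie below the line, and most lie near 0 on the y axis.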

How the data were processed

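RNA was measured in 24 libraries of sorted mouse lung cells, 3 in each of 8 groups. The authors used TopHat2 (version 2) on mm10, Cufflinks 2.0.2 and FastQC, per the submitters' processing notes. The deposited values were taken as FPKM, since the table names no unit. Read counts were not analysed here, so absolute depth is unknown, and relative depth came from the spacing of low values. Positions were taken from GENCODE M21 by Ensembl identifier, since 4218 of 32917 loci of the table overlapped theirs.

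Of 37979 genes, 17156 passed a minimum group mean of 1 FPKM in any group and were tested on log2(FPKM + 1), which understates changes of low genes. All 24 libraries were fitted in limma 3.58.1 (R 4.3.3), as 8 group means with 16 residual degrees of freedom, empirical Bayes with a trend, and Benjamini-Hochberg adjustment within each comparison. The method was tested on simulated data with independent noise and the same spread of a gene in every group. Those data held no library that stood apart, so that test does not cover this feature. Replicate numbers, which in MacB2 stand for sequencing lanes, were not used as pairs. Same-numbered MacB2-N and MacB2-2wk libraries deviated from their group means together by r of 0.03, -0.03 and -0.06. Alternatives changed the pseudocount, filter, scaling, libraries fitted, a replicate block and a lane block.

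The members and the 35 gene lists (688 of 698 entries matched) were chosen with earlier results of these data known. Named were the called genes with the 20 highest and 12 lowest log2 differences (at least 5 FPKM, groups separate, proper symbol), called list members, up to 4 abundant uncalled members per list, and 12 fixed genes. Some results are not reported here. The letters of promoters came from a RefSeq table (GRCm38.p6). Ly6c2, Ifi204 and the OAS genes have close copies, so their levels are uncertain.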

Additional observations from a re-analysis of the deposited data

Results flagged for a closer look

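These genes had a response to 2 weeks of tumour that differed between MacB2 and MacA in the interaction contrast of limma (Benjamini-Hochberg adjusted p under 0.05 and at least 2-fold), among genes called in MacA or named by the rule. Each value is the log2 difference in MacB2 minus that in MacA. The complement genes gave -3.38 for C1qa and -3.29 for C1qc, and the macrophage genes -2.58 for Itgam, -2.67 for Pla2g7 and -2.25 for Slc11a1. The interferon-stimulated genes gave -3.16 for Ifi27l2a, -2.60 for Oas3, -2.39 for Oasl2 and -2.01 for Rtp4. Mnda gave -1.83, Rnf213 -1.98 and Secisbp2 -2.13. In all of these MacA rose and the log2 difference in MacB2 was smaller, a direction that being called higher in MacA favours.

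The response was higher in MacB2 for 4 genes. Entpd1, lower in MacA, gave 1.66. The other 3 were not called in MacA. Gpnmb, a glycoprotein of lipid-laden macrophages, gave 3.78, with a log2 difference of 0.16 in MacA and 3.94 in MacB2. Il1rn, the interleukin-1 receptor antagonist, gave 2.52 (0.27 and 2.79), and Ube2c gave 3.02 (0.43 and 3.45). Mean Gpnmb was 153 FPKM in MacA-N and 1.55 FPKM in MacB2-N. The replicate block ended the calls of Gpnmb, Itgam, Mnda, Oasl2, Pla2g7, Rtp4 and Secisbp2, and the lane block those of Itgam, Oasl2 and Secisbp2. Lane and population cannot be told apart here.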

How the results depend on the processing

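In MacA 125 genes were called higher and 10 lower (135 in all), and 38 for the difference between populations. With the 6 MacA libraries alone the counts were 2 higher, 2 lower and 4 in all, 13 for the difference (fitted on its 4 groups), 1 interferon-stimulated gene, and 0 for the interferon-gamma, complement and interstitial lists; the fit has fewer residual degrees of freedom. A pseudocount of 0.1 gave 225 higher, 238 in all and 89 for the difference, with 7 interferon-gamma and 9 interstitial genes. A pseudocount of 5 gave 47 higher, 54 in all and 19, with 6 type I and 2 interferon-gamma genes. Without the filter the difference had 23 calls.

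Leaving out 1 replicate gave 87 to 244 calls in all, 79 to 212 higher, 4 to 32 lower (6 without MacA-N replicate 2, 4 without MacA-2wk replicate 1, 32 without MacA-2wk replicate 2), 17 to 57 for the difference, and 2 to 4 interferon-gamma genes. The replicate block gave 116 higher, 8 lower, 124 in all and 24 for the difference, and the lane block, added after the data were seen, 33. Same-numbered MacA libraries deviated together by r of 0.08, -0.06 and -0.02, and not every library correlated best with its own number. With 3 libraries per group these values cannot show whether the numbers pair them, and the main fit used no pairs.

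Uncalled genes changed sign. Csf1r was 0.012 with protein-coding genes scaled to the same sum and -0.30 to 0.29 with 1 library left out, and Chil3 was 0.10 with quantile normalization. With 1 library left out Marco was -0.51 to 0.87 (-0.02 and -0.05 without MacA-N replicates 2 and 3, -0.11 without MacA-2wk replicate 2) and Car4 was -0.13 to 0.36. Without read counts, the counting error of low genes such as Usp18 or Ass1 is unknown.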
